A study of Mus musculus with 12 samples.

Results

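B lymphocyte and plasma cell transcripts were examined as 9 genes, Cd79a, Cd79b, Cd22, Blk, Pax5, Ikzf3, Pou2af1, Mzb1 and Tnfrsf17, chosen by symbol out of 24956 symbols counted in 12 pancreatic tumours. A symbol is the gene name by which the counts were deposited. The tumours stem from PDA.69 cells, a line labelled T cell low and derived from KPC mice, an engineered strain that develops pancreatic cancer. The hosts of 6 tumours were Alb-Cre+/+ STAT3f/f, in which Cre driven by the albumin promoter removes Stat3 from hepatocytes, and the hosts of the other 6 were WT. All 12 tumours came from this 1 line; the Stat3 deletion is a property of the host liver. RNA was taken from fixed tissue and read at the 3' ends of transcripts, which gave 5701153 to 8091193 counts per tumour.

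B lymphocytes recognise antigen through a receptor made of a surface immunoglobulin and the signalling chains CD79A and CD79B. CD22 dampens that receptor, BLK is a Src family kinase acting below it, and PAX5 is the transcription factor that holds cells in the B lineage. When a B cell becomes an antibody-secreting plasma cell, PAX5 is switched off and genes of the secretory pathway are raised. MZB1 is an endoplasmic reticulum protein needed for immunoglobulin assembly, and TNFRSF17 (BCMA) is a survival receptor of plasma cells. POU2AF1 (OCA-B) is a coactivator of octamer-dependent transcription used by both stages, and IKZF3 (Aiolos) is a zinc finger factor of B cells that T cells and natural killer cells also make.

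Promoter sequence bears on the members because several of their regulators are themselves B lineage factors. RefSeq promoters (GRCm38.p6, 250 bases before to 50 after the start) matched 5 of the 9 members, namely Cd79a, Cd22, Pou2af1, Tnfrsf17 and Pax5. The windows were searched on both strands for the octamer ATGCAAAT bound by OCT2 with POU2AF1, for TGACGTGG of the XBP1 type and for TCCC and GGGA with 2 bases of any kind between them, of the EBF type. The motifs do not overlap each other in any window shown. Those of Pax5, which varied most between tumours among the 6 members with enough counts to test, and of Cd22 and Pou2af1, the pair with a match, are given 5′ to 3′ in the direction of the gene, with the matched motif in capitals. The Pax5 window is chr4:44710645-44710944 (minus strand), the Cd22 window chr7:30878979-30879278 (minus strand) and the Pou2af1 window chr9:51213440-51213739 (plus strand). The RefSeq start of Pax5 lies outside the GENCODE gene given further on, and that of Cd22 inside it.
Pax5: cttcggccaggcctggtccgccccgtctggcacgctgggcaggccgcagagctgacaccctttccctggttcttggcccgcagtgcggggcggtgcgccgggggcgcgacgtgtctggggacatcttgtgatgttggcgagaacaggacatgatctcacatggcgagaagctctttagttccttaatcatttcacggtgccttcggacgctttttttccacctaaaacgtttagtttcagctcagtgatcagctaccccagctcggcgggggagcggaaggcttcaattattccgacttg
Cd22: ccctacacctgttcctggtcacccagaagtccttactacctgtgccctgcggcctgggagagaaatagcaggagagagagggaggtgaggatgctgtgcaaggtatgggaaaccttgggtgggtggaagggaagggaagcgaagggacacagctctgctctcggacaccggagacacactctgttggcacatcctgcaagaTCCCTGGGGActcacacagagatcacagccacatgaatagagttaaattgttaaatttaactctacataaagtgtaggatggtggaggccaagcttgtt
Pou2af1: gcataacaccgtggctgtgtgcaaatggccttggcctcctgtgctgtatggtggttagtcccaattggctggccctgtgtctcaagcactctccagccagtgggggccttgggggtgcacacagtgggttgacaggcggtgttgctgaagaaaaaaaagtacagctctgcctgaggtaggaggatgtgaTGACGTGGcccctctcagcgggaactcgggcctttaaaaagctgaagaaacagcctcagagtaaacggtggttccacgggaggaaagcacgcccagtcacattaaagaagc
The Cd22 window held an EBF-type match whose first base lay 49 bases before the start, a motif found in 297 of 32851 promoters (0.904%). The Pou2af1 window held an XBP1-type match 61 bases before the start, a motif found in 222 promoters (0.676%). The octamer, found in 570 promoters (1.74%), was in none of the 5 windows, and the Pax5, Cd79a and Tnfrsf17 windows held none of the 3 motifs.

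The tumours differed in the share of counts from genes of the exocrine pancreas. Genes of acinar cells, which make digestive enzymes, were counted as a list of 24 and held 29.7, 45.6, 49.5, 33.1, 0.900 and 14.85% of the counts in Alb-Cre+/+ STAT3f/f tumours 1 to 6. In WT tumours 1 to 6 the share was 10.75, 3.36, 5.455, 2.58, 24.97 and 0.642%. The share was over 15% in 5 tumours, Alb-Cre+/+ STAT3f/f 1, 2, 3 and 4 and WT 5, called acinar-rich here, with Alb-Cre+/+ STAT3f/f tumour 6 just under that line. A gene's level is given in CPM, its count over the library size after TMM scaling, which lessens the weight of such abundant genes. Whether each tumour came from its own mouse is not stated, so p-values refer to the spread among these 12 samples. Markers of the tumour epithelium, 6 keratin and adhesion genes such as Krt19 and Cdh1, summed to 1846 to 2595 CPM in Alb-Cre+/+ STAT3f/f tumours and 2464 to 3149 CPM in WT tumours. In bulk tissue, fewer cells of a type and less RNA per cell cannot be told apart.

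For 5 of the 6 members that could be tested, the genotype difference did not pass against the spread between tumours. Of these 6, Ikzf3 rose in Alb-Cre+/+ STAT3f/f tumours, 0 fell and 5 did not pass, and 4 had a positive log2 fold change (Alb-Cre+/+ STAT3f/f over WT). Over all 12856 genes tested, edgeR's quasi-likelihood test called 2.98%, of which 2.23% were higher and 0.747% lower, at a Benjamini-Hochberg adjusted p under 0.05. Unadjusted, 4 of the 6 members had a p under 0.05, namely Ikzf3, Cd79b, Cd22 and Pax5, against 19.4% of all genes. The median log2 fold change of the 6 was 1.09, against 0.00 over all genes. Cd79a, Blk and Tnfrsf17 had too few counts for that test. Summed over the 9 members, the level was 71.3, 46.3, 30.2, 54.2, 39.1 and 11.3 CPM in Alb-Cre+/+ STAT3f/f tumours 1 to 6, against 8.64, 36.8, 29.8, 33.6, 26.5 and 15.5 CPM in WT tumours 1 to 6. The highest Alb-Cre+/+ STAT3f/f tumour thus stood 6.32-fold over the lowest, and the highest WT tumour 4.26-fold over the lowest.

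**Figure D1:**
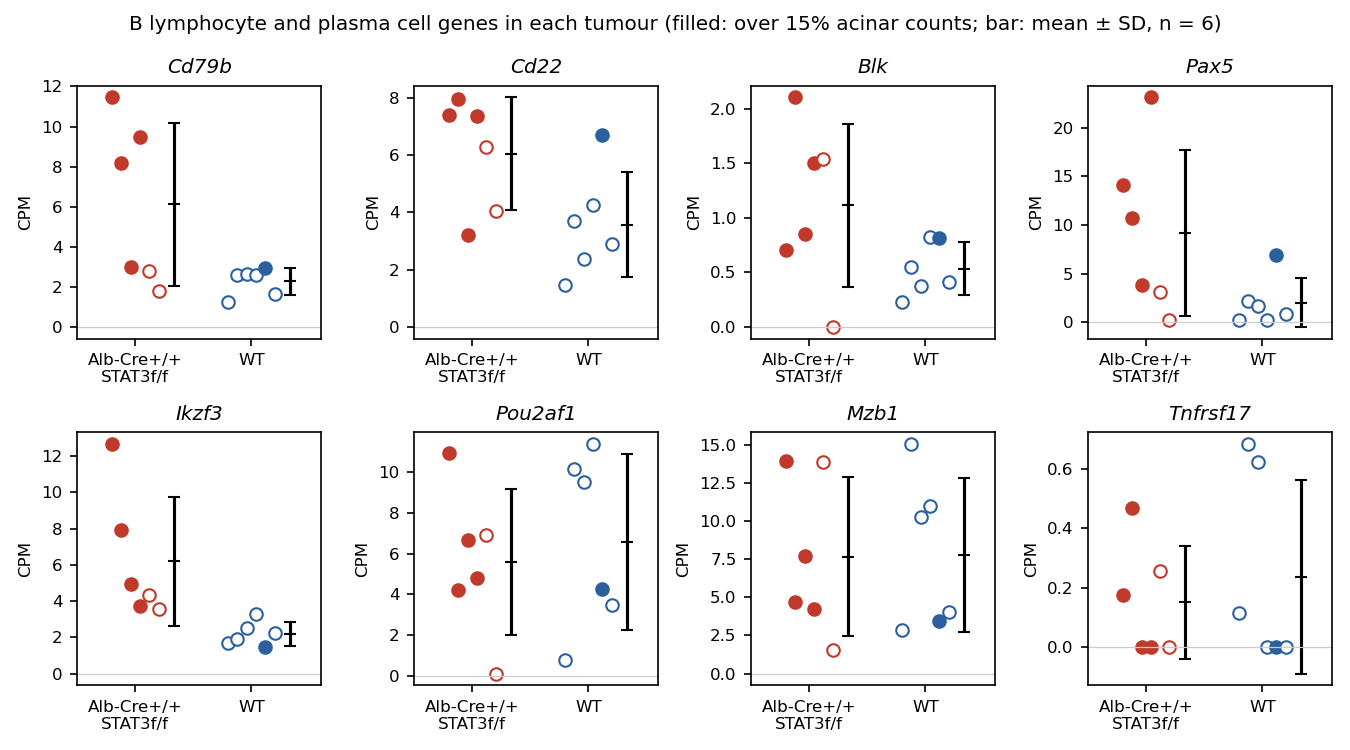
Level in CPM (y axis) of the 8 members with counts, 1 point per tumour, with Alb-Cre+/+ STAT3f/f tumours 1 to 6 in red on the left and WT tumours 1 to 6 in blue on the right of each panel. Filled points are the 5 tumours with over 15% acinar counts, and the bars give the mean ± SD (n = 6 each); of the 8 genes, Ikzf3 has all Alb-Cre+/+ STAT3f/f points above all WT points.

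The receptor chains came out very differently. Cd79a (chromosome 7, 24897381 to 24902197, plus strand, GRCm38) was listed at 0 in all 12 tumours. A count of 0 allows up to 3 counts in a tumour, or 0.341 to 0.701 CPM, a limit for counting error only. The neighbouring genes Rps19 and Arhgef1 had 2806 to 10181 and 171 to 381 counts per tumour, and 5444 of the symbols (21.8%) were at 0 in every tumour. With its partner Cd79b and other B cell genes detected, the row at 0 does not show that Cd79a RNA was missing from the tissue.

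Cd79b (chromosome 11, 106311341 to 106314762, minus strand) had 11.4, 8.18, 3.00, 9.46, 2.82 and 1.77 CPM in Alb-Cre+/+ STAT3f/f tumours 1 to 6, against 1.25, 2.60, 2.62, 2.60, 2.94 and 1.66 CPM in WT tumours 1 to 6. The 3 high values, in Alb-Cre+/+ STAT3f/f tumours 1, 2 and 4, stood over every WT value, while tumours 5 and 6 lay within the WT range. The log2 fold change was 1.41 ± 0.42 (SE, edgeR adjusted p = 0.0723), and 4 of the 6 values exceeded the highest WT value. The lowest of these, in Alb-Cre+/+ STAT3f/f tumour 3, rested on 14 counts. It lay within counting error of WT tumour 5, which had 18 counts. Cd79b passed with DESeq2 (adjusted p = 0.0215, with 4.81% of all genes called higher), and in edgeR without Alb-Cre+/+ STAT3f/f tumour 5 (0.0363) or 6 (0.0354).

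Cd22 (chromosome 7, 30865402 to 30880342, minus strand), whose promoter is shown above, ranged from 3.215 to 7.95 CPM with a median of 6.82 in Alb-Cre+/+ STAT3f/f tumours, against 1.48 to 6.70 CPM with a median of 3.30 in WT tumours. The groups overlapped, with the highest WT value in the acinar-rich tumour 5. Its log2 fold change was 0.77 ± 0.34, 3 of 6 values exceeded the highest WT value, and the edgeR adjusted p was 0.217. Blk (chromosome 14, 63372836 to 63417037, minus strand) had 4, 9, 4, 10, 12 and 0 counts in Alb-Cre+/+ STAT3f/f tumours 1 to 6, against 2, 4, 3, 7, 5 and 3 counts in WT tumours 1 to 6. That is 39 against 24 counts, a ratio per scaled library of 2.02 (95% exact interval 1.18 to 3.51, counting error only). Permuting the CPM over all 924 relabellings (exact, two-sided) gave p = 0.104, where the smallest possible is 0.0022, so the difference was within the spread between tumours.

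Pax5 (chromosome 4, 44524757 to 44710487, minus strand) varied most of the 6 tested members. It had 14.1, 10.75, 3.86, 23.1, 3.08 and 0.254 CPM in Alb-Cre+/+ STAT3f/f tumours 1 to 6, against 0.228, 2.19, 1.62, 0.237, 6.87 and 0.832 CPM in WT tumours 1 to 6. Alb-Cre+/+ STAT3f/f tumour 4 held 154 counts (95% exact Poisson interval 131 to 180), while Alb-Cre+/+ STAT3f/f tumour 6 and WT tumours 1 and 4 held 2 counts each (0.242 to 7.22). The biological coefficient of variation, the spread within a genotype beyond counting error, was 1.10 for Pax5, against 0.347 on the trend for genes of its level. The log2 fold change of 2.25 ± 0.97 was the largest of the 6 and did not pass (edgeR adjusted p = 0.233), with 3 of 6 values over the highest WT value. The sources used here do not give the strand setting of the counting, and 5730488B01Rik lies within Pax5 on the opposite strand. It had 13, 6, 0, 6, 5 and 0 counts in Alb-Cre+/+ STAT3f/f tumours 1 to 6 and 0 in every WT tumour.

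Ikzf3 (chromosome 11, 98464902 to 98546031, minus strand) had 12.7, 7.95, 4.93, 3.755, 4.36 and 3.55 CPM in Alb-Cre+/+ STAT3f/f tumours 1 to 6, against 1.71, 1.915, 2.50, 3.31, 1.47 and 2.22 CPM in WT tumours 1 to 6. The groups did not overlap, a pattern shown by 1.37% of the genes tested. Ikzf3 rose by 1.48 ± 0.36 on the log2 scale (edgeR adjusted p = 0.0267, 6 of 6 values over the highest WT value). It also passed with DESeq2 (adjusted p = 0.0029, with 4.81% of all genes called higher). Alb-Cre+/+ STAT3f/f tumour 1 was the highest, and without it the log2 fold change was 1.14 ± 0.34 (edgeR adjusted p = 0.103). The edgeR adjusted p was also over 0.05 without Alb-Cre+/+ STAT3f/f tumour 2 (0.0638) or WT tumour 1 (0.0604), 2 (0.0505), 3 (0.0543) or 6 (0.0576). Markers of T cells, another source of Ikzf3, differed between the groups in the same direction. Their summed level ran from 62.4 to 128 CPM in Alb-Cre+/+ STAT3f/f tumours and from 21.95 to 57.9 CPM in WT tumours. All 12 of 12 tested had a positive fold change, and none with a row was at 0 throughout. In edgeR 1 rose (Cd247, by 1.42 ± 0.35), against 2.23% of all genes, and DESeq2 called 6 higher, against 4.81%. With the acinar score in the fit the edgeR adjusted p of Cd247 was 0.0906. In that fit DESeq2 called 3 T cell genes higher, against 2.12% of all genes. Without the acinar-rich tumours, 10 of the 12 had an unadjusted p under 0.05 in edgeR, against 11.3% of all genes. There edgeR called 0 of them higher and DESeq2 3, against 77 and 227 of all 12856 genes. Their median log2 fold change was 1.42 there and 1.03 over all 12 tumours, while that of Ikzf3 was 0.74 ± 0.44 there. The part of T cells in the Ikzf3 difference was not tested.

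The plasma cell members showed no such direction. Mzb1 (chromosome 18, 35647267 to 35649367, minus strand) had 13.9, 4.68, 7.72, 4.21, 13.8 and 1.52 CPM in Alb-Cre+/+ STAT3f/f tumours 1 to 6, against 2.84, 15.04, 10.2, 11, 3.43 and 4.02 CPM in WT tumours 1 to 6. Pou2af1 (chromosome 9, 51213708 to 51240080, plus strand) had 10.9, 4.21, 6.64, 4.81, 6.92 and 0.127 CPM in Alb-Cre+/+ STAT3f/f tumours 1 to 6, against 0.796, 10.1, 9.49, 11.4, 4.25 and 3.47 CPM in WT tumours 1 to 6. Both genes had the same 5 highest tumours, Alb-Cre+/+ STAT3f/f 1 and 5 and WT 2, 3 and 4, and both were lowest in Alb-Cre+/+ STAT3f/f tumour 6 and WT tumour 1. Mzb1 had a log2 fold change of -0.02 ± 0.55 (edgeR adjusted p = 0.987) and Pou2af1 of -0.24 ± 0.69 (0.887). Tnfrsf17 (chromosome 16, 11313812 to 11320074, plus strand) had 1, 2, 0, 0, 2 and 0 counts in Alb-Cre+/+ STAT3f/f tumours 1 to 6, against 1, 5, 5, 0, 0 and 0 counts in WT tumours 1 to 6. Its ratio of 0.564 (95% exact interval 0.154 to 1.76, counting error only) was not detectable as a difference at this depth (exact two-sided permutation p = 0.61).

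The balance of the B lymphocyte and plasma cell members differed from tumour to tumour. Of the counts of Mzb1, Pou2af1 and Tnfrsf17 with those of Cd79b, Cd22, Blk and Pax5, the plasma cell members made up 42.6, 24.4, 56.8, 17.9, 60.5 and 21.3% in Alb-Cre+/+ STAT3f/f tumours 1 to 6. They made up 54.1, 74.1, 74.4, 73.8, 30.7 and 56.2% in WT tumours 1 to 6. The share was lowest in Alb-Cre+/+ STAT3f/f tumour 4 (95% exact binomial interval 13.9 to 22.4% of 336 counts) and highest in WT tumour 3 (68.1 to 80.1% of 219 counts). WT tumours 2, 3 and 4 lay above every Alb-Cre+/+ STAT3f/f tumour, and the acinar-rich WT tumour 5 lay among the Alb-Cre+/+ STAT3f/f tumours. Pou2af1, which B cells use as well, was counted here with the plasma cell members. With it left out, the share was 29.5, 15.1, 41.4, 9.21, 50.7 and 20% in Alb-Cre+/+ STAT3f/f tumours 1 to 6. In WT tumours 1 to 6 it was 48.1, 63.5, 60.8, 58.1, 16.5 and 40.8%. WT tumours 2, 3 and 4 were again above every Alb-Cre+/+ STAT3f/f tumour. That share rests almost wholly on Mzb1, with 283 counts in Alb-Cre+/+ STAT3f/f tumours and 360 in WT tumours. Tnfrsf17 had 5 and 11 counts. The B lymphocyte members summed to 22.5 ± 14.2 CPM in Alb-Cre+/+ STAT3f/f tumours and 8.38 ± 4.82 CPM in WT tumours, and the plasma cell members to 13.4 ± 8.57 CPM in Alb-Cre+/+ STAT3f/f tumours and 14.6 ± 9.34 CPM in WT tumours (SD, n = 6 each).

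**Figure D2:**
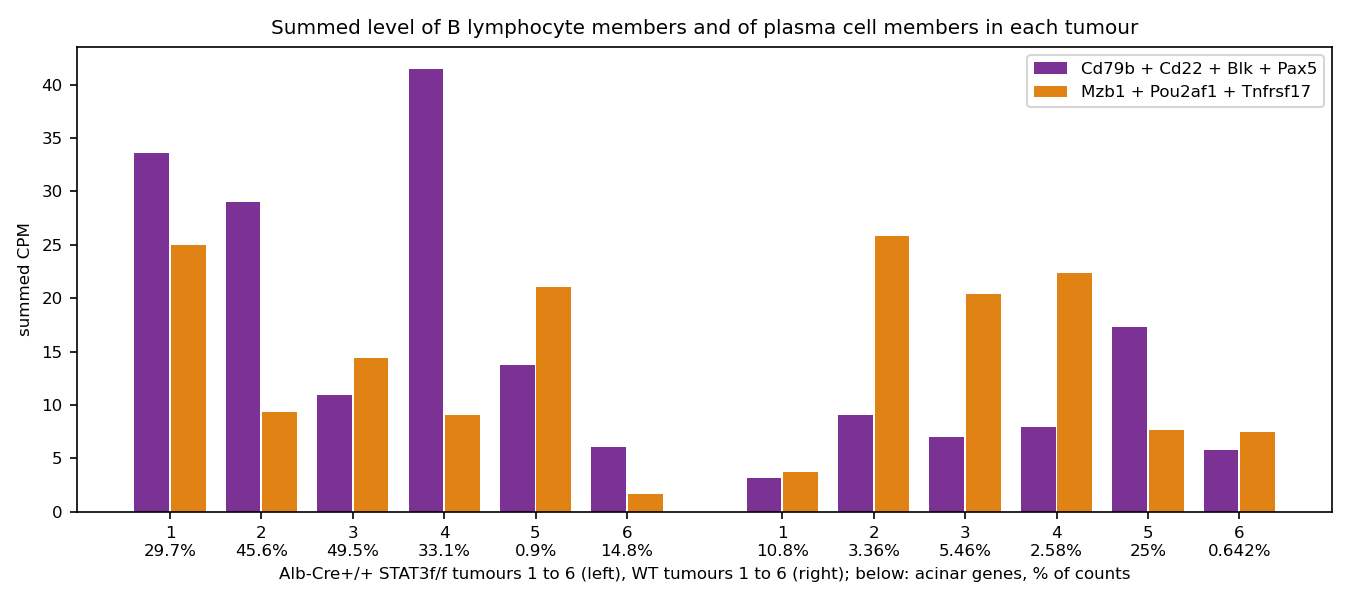
Summed CPM (y axis) of 4 B lymphocyte members (purple) and 3 plasma cell members (orange) in each tumour, with Alb-Cre+/+ STAT3f/f tumours 1 to 6 on the left and WT tumours 1 to 6 on the right; the percent under each tumour is its share of acinar counts. The purple bar is highest in Alb-Cre+/+ STAT3f/f tumour 4 (41.5 CPM) and the orange bar in WT tumour 2 (25.85 CPM).

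Acinar content was then set beside the members. The 5 tumours with the highest Cd79b and the 5 with the highest Pax5 were in each case the 5 acinar-rich tumours, a pattern shown by 279 of all 12856 genes (2.17%). For both genes the lower end of these 5 lay within counting error. For Cd79b, Alb-Cre+/+ STAT3f/f tumour 3 had 14 counts (95% exact Poisson interval 7.65 to 23.5) or 3.00 CPM. WT tumour 5 had 18 counts (2.94 CPM), against 22 (2.82 CPM) in Alb-Cre+/+ STAT3f/f tumour 5, outside the 5. For Pax5, Alb-Cre+/+ STAT3f/f tumour 3 had 18 counts (3.86 CPM) and tumour 5 had 24 (3.08 CPM). For Cd22 and Ikzf3, 4 of the 5 highest tumours were acinar-rich, for Blk 3, for Tnfrsf17 2, and for Mzb1 and Pou2af1 1. Since 4 of the 5 acinar-rich tumours were Alb-Cre+/+ STAT3f/f, acinar content and genotype were partly confounded.

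A fit with genotype and the acinar score, the mean log2 CPM of the 23 acinar genes tested, gave the slope of each member per doubling of acinar transcripts within genotype. The slopes were 0.36 ± 0.20 for Pax5, 0.16 ± 0.10 for Cd79b, 0.04 ± 0.07 for Cd22, 0.03 ± 0.08 for Ikzf3, -0.05 ± 0.17 for Pou2af1 and -0.14 ± 0.12 for Mzb1 (log2 ± SE). None of the 6 passed in edgeR, 0 had an unadjusted p under 0.05 and DESeq2 called 0, where edgeR called 3.6% of all genes, 2.75% rising and 0.848% falling with the score. Without Alb-Cre+/+ STAT3f/f tumour 5 the slope was 0.56 for Pax5, 0.0999 for Cd79b, 0.11 for Cd22, -0.070 for Ikzf3, -0.017 for Pou2af1 and -0.071 for Mzb1, and none passed. Their adjusted p-values in edgeR over all 12 tumours ran from 0.368 for Pax5 to 0.919 for Pou2af1. The slope was not shown to differ between the genotypes for any member: edgeR's interaction test called 0 of 6 (0.0156% of all genes), 0 had an unadjusted p under 0.05, and DESeq2 called 0 (0.0311%). The B lymphocyte members summed to 33.6, 29.0, 10.9 and 41.5 CPM in the acinar-rich Alb-Cre+/+ STAT3f/f tumours 1 to 4. In the acinar-rich WT tumour 5 the sum was 17.3 CPM. Alb-Cre+/+ STAT3f/f tumour 5, with 0.900% acinar counts, had 13.7 CPM of these members. Alb-Cre+/+ STAT3f/f tumour 6, with 14.85%, had 6.08 CPM, and the other WT tumours had 3.19 to 9.03 CPM.

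**Figure D3:**
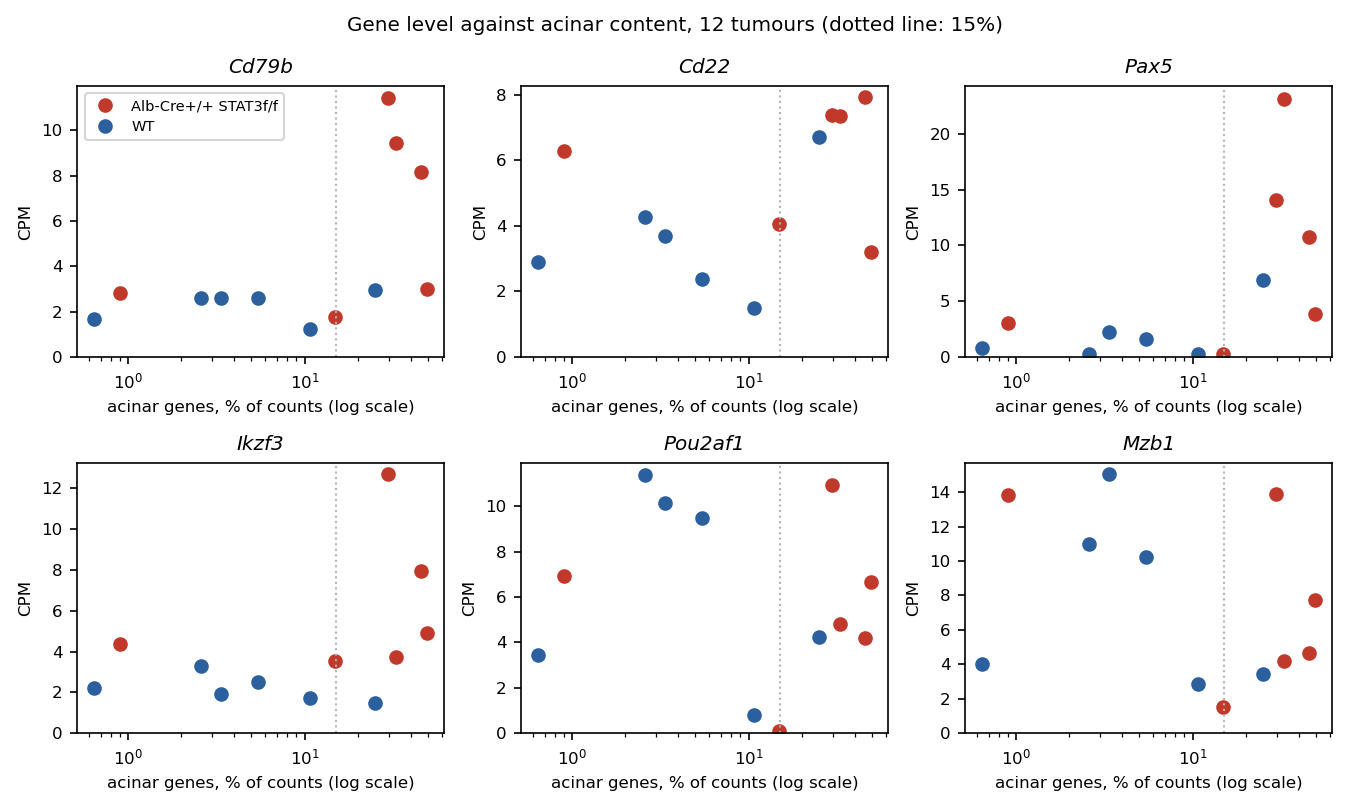
CPM (y axis) of the 6 tested members against the share of counts in acinar genes in percent (x axis, log scale), 1 point per tumour, Alb-Cre+/+ STAT3f/f in red and WT in blue, with a dotted line at 15%. Cd79b and Pax5 have their 5 highest points right of the line, whereas Mzb1 and Pou2af1 have 4 of their 5 highest left of it.

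With the acinar score in the fit, the genotype difference of Ikzf3 was 1.38 ± 0.42 on the log2 scale and did not pass (edgeR adjusted p = 0.115). That of Cd79b was 0.97 ± 0.46 (0.419), that of Cd22 0.69 ± 0.36 (0.491) and that of Pax5 1.49 ± 0.94 (0.635). In that fit edgeR called 0 of the 6 members (1.03% of all genes were called higher), 2 had an unadjusted p under 0.05 (11.6% of all genes), and DESeq2 called 1 higher (2.12% of all genes). Without the 5 acinar-rich tumours, 2 Alb-Cre+/+ STAT3f/f and 5 WT tumours remained. The log2 fold changes were then 0.09 ± 0.51 for Cd79b, 0.80 ± 0.44 for Cd22, 0.71 ± 0.91 for Pax5, 0.74 ± 0.44 for Ikzf3, -0.18 ± 0.93 for Mzb1 and -1.01 ± 1.34 for Pou2af1. In those 7 tumours 0 members passed in edgeR (0.599% of all genes were called higher) or DESeq2, and 0 had an unadjusted p under 0.05.

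**Figure D4:**
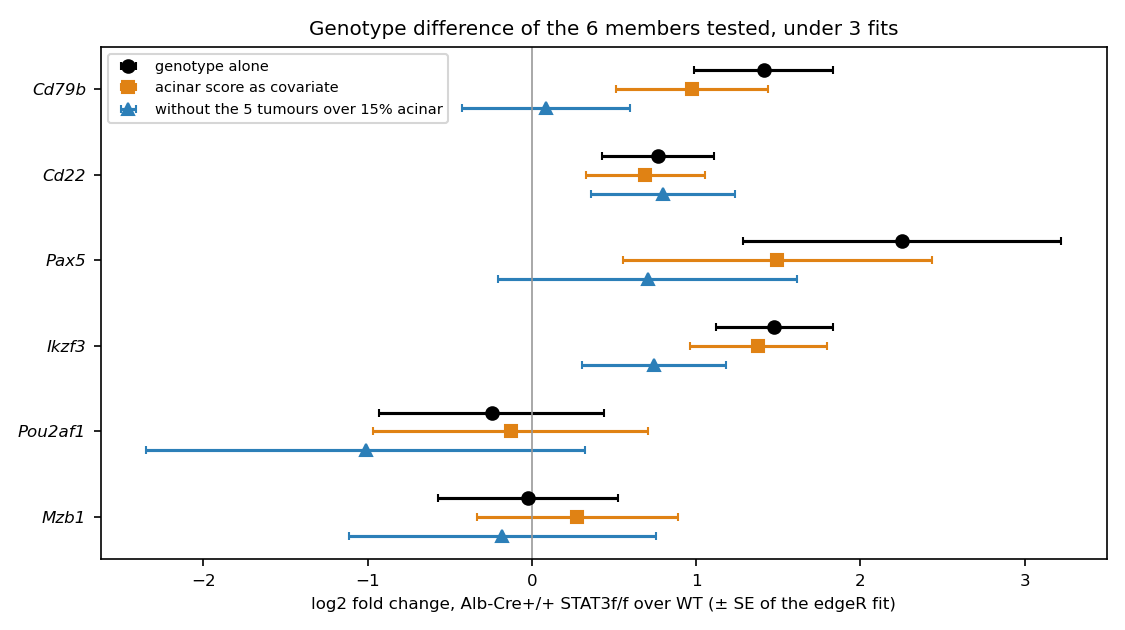
Log2 fold change of Alb-Cre+/+ STAT3f/f over WT (x axis) with its SE for the 6 tested members, from the fit of genotype alone (black circles), with the acinar score as a covariate (orange squares) and without the 5 acinar-rich tumours (blue triangles). The Cd79b estimate is 1.41, 0.97 and 0.09 in the 3 fits, and that of Cd22 0.77, 0.69 and 0.80.

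Other genes of the B lineage mostly had positive fold changes without passing the test. Of 26 listed, 15 were tested and 14 had a positive fold change, with a median of 0.91 on the log2 scale against 0.00 over all genes. None passed in edgeR, though 11 had an unadjusted p under 0.05, as had 19.4% of all genes. DESeq2 called 3 higher, against 4.81% of all genes. With the acinar score in the fit the median was 0.60, and DESeq2 called 0 there and 0 without the acinar-rich tumours. Per doubling of acinar transcripts, 12 of the 15 had a positive slope. Of these 15 slopes, 6 had an unadjusted p under 0.05 in edgeR, against 18.1% of all genes. None passed in edgeR, and DESeq2 called 1 rising, against 4% of all genes. By genotype, the smallest p-value belonged to Ebf1, a transcription factor acting with PAX5 (0.88 ± 0.24, edgeR adjusted p = 0.0518). Ms4a1, encoding CD20, had 15.3, 5.61, 3.86, 9.61, 6.15 and 0.634 CPM in Alb-Cre+/+ STAT3f/f tumours 1 to 6, against 0.114, 1.504, 1.12, 0.710, 4.09 and 0 CPM in WT tumours 1 to 6 (2.49 ± 0.81, edgeR adjusted p = 0.117). The per-tumour values of Ms4a1 and Jchain were chosen for display after they were seen.

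Signalling genes below the B cell receptor included 8 that rose. In edgeR's test 8 of 25 rose and 0 fell, against 2.23% and 0.747% of all genes, with a median log2 fold change of 0.63. With the acinar score in the fit 4 rose, against 1.03% of all genes, and without the acinar-rich tumours 1, against 0.599%. Prkcb, a protein kinase C, had 64.8 ± 3.86 CPM in Alb-Cre+/+ STAT3f/f tumours and 39.1 ± 6.75 CPM in WT tumours (0.73 ± 0.12, edgeR adjusted p = 0.00176). Fcgr2b, the inhibitory Fc receptor, had 13.7 ± 3.49 CPM in Alb-Cre+/+ STAT3f/f tumours and 6.45 ± 1.29 CPM in WT tumours (1.07 ± 0.21, 0.00987). The kinases Lyn (0.57 ± 0.10) and Fyn (0.90 ± 0.18), the phosphatases Ptprc (0.79 ± 0.16) and Inpp5d (0.81 ± 0.19), and also Btk and Ptpn6, rose. Most of these 8 are made by myeloid cells as well. Macrophage markers moved with them. Of 12 tested, 8 were higher, 6 with the acinar score and 4 without the acinar-rich tumours, against the same shares of all genes. Their summed level was 2786 to 4442 CPM in Alb-Cre+/+ STAT3f/f tumours against 2138 to 3791 CPM in WT tumours. No marker was at 0 throughout. The part of macrophages in these differences was not tested. Among the Ikaros family and related lymphoid factors, 11 in all, Ikzf1 also rose (1.21 ± 0.17, edgeR adjusted p = 0.000686), with 24.0 ± 4.05 CPM in Alb-Cre+/+ STAT3f/f tumours and 10.4 ± 2.14 CPM in WT tumours.

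Other plasma cell genes split. Of 15 tested, 12 had a positive fold change by genotype, with a median of 0.73 on the log2 scale. An unadjusted p under 0.05 was held by 10, against 19.4% of all genes. With the acinar score in the fit the median was 0.26 and 10 were positive. There, 5 had an unadjusted p under 0.05, against 11.6% of all genes. Without the acinar-rich tumours 7 were positive, with a median of -0.06. By genotype alone 0 rose and 2 fell in edgeR, against 2.23% and 0.747% of all genes. DESeq2 called 5 higher and 2 lower, against 618 and 288 of all 12856 genes. With the acinar score it called 1 higher and 2 lower, against 273 and 96. Those that fell in edgeR were Sdc1, the plasma cell surface proteoglycan CD138 that epithelial cells also make (-0.51 ± 0.10, edgeR adjusted p = 0.00809), and Prdm1, encoding BLIMP1, the factor that drives plasma cell differentiation (-0.60 ± 0.14, 0.0254). With the acinar score in the fit the edgeR adjusted p of Prdm1 was 0.0858, and without the acinar-rich tumours 0 of the list passed. Jchain, which links secreted IgA and IgM, had 122, 75.05, 43.9, 62.2, 49.7 and 19.65 CPM in Alb-Cre+/+ STAT3f/f tumours 1 to 6, against 36.6, 328, 202, 272, 41.85 and 121 CPM in WT tumours 1 to 6. The 3 highest values were in WT tumours 2, 3 and 4, which also held the highest shares of plasma cell members. Its log2 fold change was -1.43 ± 0.62 (edgeR adjusted p = 0.239). With acinar content, 6 of the 15 tested genes of the list rose in edgeR, against 2.75% of all genes. DESeq2 also called 6 rising, against 4% of all genes. Per doubling, those in edgeR rose as follows: Derl3 by 0.50 ± 0.06, Xbp1 by 0.24 ± 0.05, Fkbp11 by 0.24 ± 0.04, Ell2 by 0.18 ± 0.05, Sdf2l1 by 0.16 ± 0.03 and Creld2 by 0.11 ± 0.03 (edgeR adjusted p of 2.77e-05 to 0.0411). All but Ell2, an elongation factor, act in or for the secretory pathway of the endoplasmic reticulum, which acinar cells use too, and Mzb1 had a slope of -0.14 ± 0.12. The immunoglobulin constant genes were not analysed here.

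Survival factors and lymphoid chemokines gave few tests. Tnfsf13b, encoding BAFF, had a log2 fold change of 0.58 ± 0.36 (edgeR adjusted p = 0.397) and its receptor Tnfrsf13b 0.68 ± 0.26 (0.150). DESeq2 called neither, and 1 of the 2 had an unadjusted p under 0.05 in edgeR, against 19.4% of all genes. Of 6 tested genes of organised lymphoid tissue, 1 rose and 1 fell in edgeR, against 2.23% and 0.747% of all genes. Ccr7, a lymph node homing receptor, rose (1.14 ± 0.28, edgeR adjusted p = 0.0274). Clu, a chaperone of follicular dendritic cells and of epithelia, fell (-0.62 ± 0.14, 0.0208). Neither passed in edgeR with the acinar score in the fit (adjusted p = 0.0766 for Ccr7). In that fit DESeq2 called 1 gene of the list higher and 1 lower, against 273 and 96 of all 12856 genes. Cxcl13, the chemokine that draws B cells into follicles, had 31.2 ± 34.2 CPM in Alb-Cre+/+ STAT3f/f tumours and 12.7 ± 11.9 CPM in WT tumours (SD, n = 6 each).

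The genes whose levels followed the summed members most closely were sought among 10284 genes of at least 5 CPM. The measure was Pearson's r of the deviations from the genotype mean over 12 tumours, given as a description with no test; genes of a tumour share its library and depth. The highest were Ngef (r = 0.906), Osgin1 (0.902), Mef2c (0.852), Ngp (0.850), Aqr (0.819), Kptn (0.797), Jchain (0.797), Ndufaf1 (0.796), Sigirr (0.794) and Btbd7 (0.793). Of the 10, Jchain is on the plasma cell list, and Mef2c encodes a transcription factor that B cells use among other cell types.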

How the data were processed

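RNA from 12 tumours was scraped from fixed, paraffin-embedded slides and made into Lexogen QuantSeq 3' libraries, per the labels' protocols. The deposited values are raw counts per gene symbol made by the authors; the submitters' processing notes name STAR and mm10, and the sources used here name no version, counting tool or strand setting. Reads carry no stated molecular identifiers, so intervals and floors cover counting error only. Of 24982 entries, 26 were date numbers with no gene name (0.069 to 0.166% of counts) and were left out. In R 4.3.3, edgeR 4.0.16 filterByExpr (minimum count 10, minimum total 15, proportion 0.7) kept 12856 genes. TMM factors ran from 0.578 to 1.29. The robust two-sided quasi-likelihood test was run on genotype alone, with the acinar score (prior count 2) or with their interaction, with Benjamini-Hochberg adjustment over all tested genes and a threshold of 0.05. DESeq2 1.42.0 was an alternative, with other scalings, no filter and left-out tumours. Coordinates are from GENCODE (GRCm38).

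The members, gene lists and tests were chosen with earlier results of these data known. All 9 members are named; in other lists, up to 6 genes past the test, otherwise the 2 with the smallest p; and the 10 genes most like the summed members. A gene that this rule names is left out of the text. Blk and Tnfrsf17, below the filter, were tested by exact permutation of CPM. The numbers that start the sample descriptions were all lower for Alb-Cre+/+ STAT3f/f than for WT tumours; what they mark is not stated, and it cannot be told apart from genotype.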

Additional observations from a re-analysis of the deposited data

Results flagged for a closer look

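Pax5 in the WT tumours had 1 value apart from the rest of its group. WT tumour 5 had 6.87 CPM, and the next highest WT tumour 2.19 CPM, a gap of 0.705 of the group's range, over Dixon's 95% limit for 6 values. WT tumour 5 was also the WT tumour with the most acinar counts (24.97%). Of 16 groups examined, 1 stood out in this way, and chance alone gives about 1 in 20. Without WT tumour 5 the Pax5 log2 fold change was 3.17, and its edgeR adjusted p stayed over 0.05 without any 1 tumour (0.0937 to 0.368).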

How the results depend on the processing

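Against 287 genes higher and 96 lower by genotype, with 1 member higher, DESeq2 gave 618 and 288 with 2 members, the acinar score as covariate 133 and 33 with 0 members, and the fit without acinar-rich tumours 77 and 15 with 0. Left-out tumours gave 143 to 469 higher, 37 to 222 lower and 0 to 2 members. Against 354 genes rising and 109 falling with acinar score, DESeq2 gave 214 falling, Alb-Cre+/+ STAT3f/f tumours alone 210 and 11, WT tumours alone 103 and 17, and left-out tumours 150 to 446 and 21 to 243; 0 members passed in any of these. The sources used here do not state that the replicate numbers pair the tumours. Same-numbered tumours correlated at -0.513 to 0.127, and 1 of 12 correlated best with its own number. Such correlations cannot show whether tumours were paired in handling. With replicate as a block, 145 genes were higher and 44 lower with 0 members, and 157 rose and 13 fell with acinar score. Signs turned for Mzb1 by genotype (0.28 with the acinar covariate; -0.30 to 0.27 with left-out tumours), Pou2af1 (-0.55 to 0.020), the slope of Ikzf3 (-0.070 with the block, -0.13 in WT tumours alone, -0.070 to 0.068 with left-out tumours) and that of Cd22 (-0.00052 in Alb-Cre+/+ STAT3f/f tumours alone, -0.036 to 0.11). With left-out tumours the slopes ranged from 0.25 to 0.56 for Pax5, 0.0999 to 0.20 for Cd79b, -0.20 to -0.071 for Mzb1 and -0.099 to -0.0077 for Pou2af1, and with the block those of Mzb1 and Pou2af1 were -0.33 and -0.22. The cause was not tested. Leaving Pou2af1 out of the plasma cell share was chosen after seeing the data. The summed members averaged 36.2 to 48.2 CPM in Alb-Cre+/+ STAT3f/f tumours and 22.8 to 28.45 CPM in WT tumours with 1 left out. Counts of 2 to 154 limit Pax5, and Blk, Tnfrsf17 and Cd79a lie near or under detection.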
